A study of Rattus norvegicus with 9 samples.

Results

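The interleukin 17 receptor and ligand genes were followed across 9 arrays of rat liver cells captured by laser. The 10 genes were chosen by name: the receptor chains Il17ra, Il17rb, Il17rc, Il17rd and Il17re, the ligands Il17a, Il17b, Il17f and Il25, and the adaptor Traf3ip2. Each was read by 1 probe set that carries that symbol alone, so 10 probe sets of 36685 and 10 of 18166 named genes are described. All rats behind the arrays were female F344 given retrorsine, a pyrrolizidine alkaloid that blocks division of mature hepatocytes, in 2 injections of 30 mg/kg set 2 weeks apart, and part of the liver was removed 4 weeks after the second. Such livers are known to regrow through small hepatocyte-like progenitor cells (SHPCs), which form clusters. The groups were SHPC clusters of livers that received no cells (3 arrays), SHPC clusters of livers into which sorted Thy1+ cells from donors with the enzyme DPPIV had been placed by way of the spleen (3 arrays), and hepatocytes lying next to SHPC clusters in livers that received no cells (3 arrays). The hepatocyte arrays are named by their cell type label, whereas their description label names SHPCs with Thy1+ cells. The recipients are described as lacking DPPIV. There was no group of hepatocytes from transplanted livers and none without retrorsine and hepatectomy. The labels do not say how many animals the arrays represent or which regions share an animal, so the p-values measure only the spread between arrays, which may be technical.

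Receptors of this family work as pairs of chains. The chain encoded by Il17ra is shared: with the Il17rc product it binds the Il17a and Il17f cytokines, with the Il17rb product it binds the cytokine encoded by Il25, and with the Il17re product it binds the Il17c cytokine. The Il17b cytokine also binds the Il17rb chain. Inside the cell the paired chains recruit Act1, the product of Traf3ip2, which passes the signal through TRAF6 towards NF-kB and the MAP kinases. In liver the Il17a and Il17f cytokines come mainly from lymphocytes and raise chemokines and acute phase proteins, while the Il25 cytokine is known for type 2 responses. Il17rb was itself a subject of the study, so its values are no independent evidence of its direction.

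The captured material read as hepatocytes with other liver cells in it. Of 12 hepatocyte markers 10 were named on the array, and all 10 lay above the array's median on every array. All 14 Kupffer cell markers did the same, as did 8 of 8 named sinusoidal endothelial markers, whereas 5 of 15 named T, NK and innate lymphoid markers did, and the T cell gene Cd3e lay below the median on all 9 arrays. Array 2 of the SHPCs and array 2 of the hepatocytes differed from the other 7, with median intensities of 24.1 and 23.0 on the linear scale against 19.6 to 20.6. Their log2 values also spread less, with an SD of 1.94 and 1.98 against 2.09 to 2.13. Where leaving out either turned the direction of a difference of a named gene or moved it by over 1.5 times, the value without it is given beside the result.

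Il17rb was the member whose levels in transplanted livers lay apart from those of both groups without transplantation. Its log2 intensity was 5.72, 4.29 and 5.08 on SHPC arrays 1, 2 and 3, and 6.86, 6.18 and 6.19 on the arrays of SHPCs from transplanted livers. Hepatocyte arrays 1, 2 and 3 gave 5.46, 4.70 and 5.11. Every array of transplanted livers lay above all 6 arrays of livers without transplantation, and the 2 untransplanted groups overlapped. The lowest of the 9 values were those of SHPC array 2 and hepatocyte array 2. On the linear scale the group means were 35.4 in SHPCs, 87.2 in SHPCs of transplanted livers and 34.9 in hepatocytes. In such bulk samples a larger share of cells carrying a transcript and more of it per cell cannot be told apart.

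RefSeq places Il17rb on chromosome 16 of assembly GRCr8, between Actr8 and Chdh. The window around its start site is shown because Il17rb had the largest difference among the members, and 7 of the 10 members have such a window in the table used. It spans chr16:5200608-5200907 on the minus strand of GRCr8, 300 bases that include the start, with matches to the GC box in capitals.
Il17rb: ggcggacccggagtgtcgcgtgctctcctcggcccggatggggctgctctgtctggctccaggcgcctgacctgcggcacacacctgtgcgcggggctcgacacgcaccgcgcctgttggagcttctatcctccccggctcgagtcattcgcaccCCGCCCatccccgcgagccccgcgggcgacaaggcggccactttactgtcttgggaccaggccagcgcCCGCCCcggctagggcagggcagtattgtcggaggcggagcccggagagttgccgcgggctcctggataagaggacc
A GC box was searched as GGGCGG on both strands. The CCAAT box was searched as CCAAT, the TATA box as TATAAA, the sterol regulatory element as TCACNCCAC and the E box as CACGTG, likewise on both strands. The Il17rb window held 2 GC boxes and no match to the other 4, and 71% of its bases were G or C against a median of 51.7% over 33469 windows of that length. A GC box was found in 33.1% of those windows, a CCAAT box in 37.5%, a TATA box in 14.2%, the sterol element in 1.12% and the E box in 6.42%. Such matches describe the letters of the window and show no binding.

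**Figure D1:**
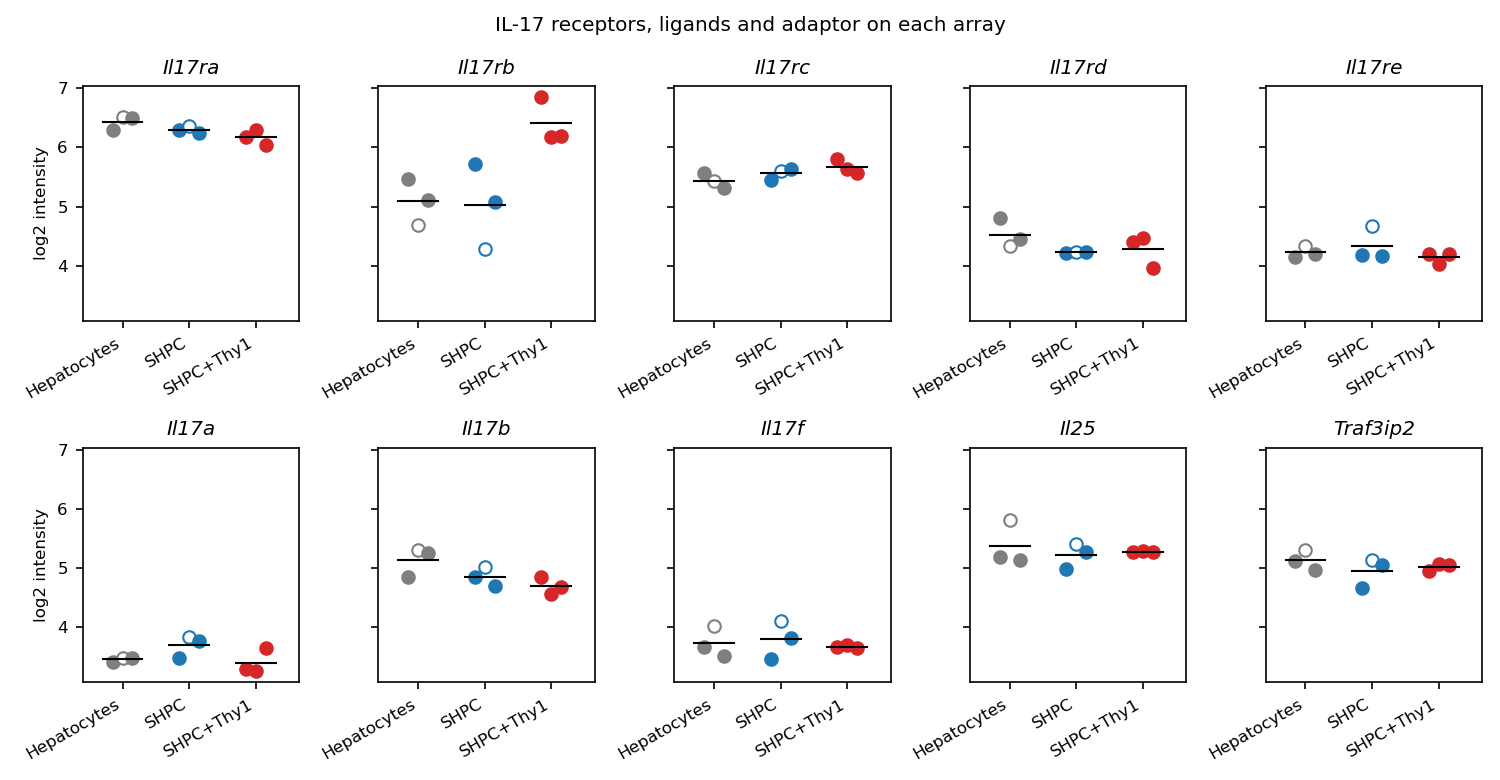
Log2 intensity (vertical axis) of the 10 genes on each array, by group (horizontal axis). Points are arrays numbered 1 to 3 from left to right, lines are group means, and open points mark SHPC array 2 and hepatocyte array 2. Il17rb lies between 6.18 and 6.86 in SHPCs of transplanted livers and between 4.29 and 5.72 on the other 6 arrays.

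Setting SHPCs of transplanted livers against SHPCs of livers without transplantation asks what differs in the progenitor clusters once Thy1+ cells were given. Il17rb differed by 1.38 ± 0.35 on the log2 scale (SE), or 2.60-fold, with a 95% interval of 0.60 to 2.16. The difference did not pass (limma adjusted p = 0.339). Of the 15793 genes tested, 129 had a smaller p and 37 a larger increase. None of the 10 members passed (0 of 10 in limma, with 1 at an unadjusted p under 0.05, which was Il17rb), where 1 gene or 0.00633% of all tested passed and 7.35% had such an unadjusted p. The arrays of both groups lay apart for 1 of the 10 members, against 15.8% of all genes tested. Without SHPC array 2 the Il17rb difference was 1.01 ± 0.29 (SE), or 2.01-fold, with an interval of 0.35 to 1.67 (limma adjusted p = 0.544), and without both arrays that differed it was 1.01 (limma adjusted p = 0.231), with 0.146% of all genes passing. It passed when arrays were weighted by quality (1.12, limma adjusted p = 0.0372), a setting that called 1.64% of all genes.

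Sums of cell type markers also differed between these groups. The summed linear intensity of the 14 Kupffer cell markers was 3571 to 4252 on the arrays of transplanted livers and 3100, 1880 and 2867 on SHPC arrays 1, 2 and 3. All 14 were higher by group mean, with a median difference of 0.58. Without SHPC array 2 all 14 stayed higher, but each by less. Hepatocyte markers summed to 52220 to 53150 against 43950 to 50410, with 9 of 10 higher, and endothelial markers to 976 to 1134 against 633 to 961, with 8 of 8 higher. Without SHPC array 2 the hepatocyte markers Serpina1 (11.80 in SHPCs against 11.78 in transplanted livers) and Hnf4a (8.86 against 8.81) turned lower in transplanted livers. So did the endothelial markers Stab1 (5.44 against 5.37) and Tek (5.92 against 5.85). T, NK and innate lymphoid markers summed to 484 to 594 against 293 to 435, but 5 of the 10 tested were higher and 5 lower, with a median of 0.02. Cd4 made up a large part of this sum, with a linear mean of 280.3 against 157.5. Cd4 (0.99 ± 0.50, SE) and Il7r (0.72 ± 0.27) had the largest differences while Cd3e differed by −0.21 ± 0.16. Without SHPC array 2 the SHPC mean of Cd4 rose from 7.11 to 7.67, against 8.11 in transplanted livers. That of Il7r rose from 5.40 to 5.75, against 6.12, and that of Cd3e fell from 3.49 to 3.31, against 3.28. Cd2 and Gzmb turned higher in transplanted livers without that array (2.94 against 2.84 and 2.95 against 2.79). No marker of these lists passed (0 in limma). An unadjusted p under 0.05 was reached by 6 of 14 Kupffer, 2 of 10 hepatocyte, 0 of 8 endothelial and 1 of 10 lymphoid markers. Over all genes tested the share was 7.35%. The sums of 6 of 8 cell type lists were higher on every array of transplanted livers than on every SHPC array, and the lowest SHPC sum was that of array 2 in each list named here. The part of these cells in the Il17rb difference was not tested.

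The other receptor chains had smaller differences. Il17ra, the shared chain, read 6.29, 6.37 and 6.24 in SHPCs and 6.18, 6.30 and 6.04 in SHPCs of transplanted livers, a difference of −0.13 ± 0.13 (SE). Il17rc, the partner of the shared chain for the Il17a and Il17f cytokines, read 5.46, 5.60 and 5.63 against 5.80, 5.64 and 5.57, a difference of 0.11 ± 0.13. Both genes overlapped between the groups. Il17rd, also known as Sef and described as an inhibitor of fibroblast growth factor signalling, read 4.22, 4.23 and 4.24 against 4.41, 4.47 and 3.97, so that the spread in transplanted livers covered the SHPC values. Il17re, the chain for the Il17c cytokine, read 4.19, 4.68 and 4.16 against 4.20, 4.03 and 4.20, with SHPC array 2 the high value. Il17re was also dim, above the array's median on 1 of 9 arrays, and Il17rd was above it on 4 of 9. The Il17rd and Il17re differences were 0.05 ± 0.17 and −0.20 ± 0.16 (SE), the latter −0.031 without SHPC array 2, and the limma adjusted p-values of these 4 chains lay between 0.734 and 0.933.

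Neither ligand of the Il17rb chain differed beyond its spread between the SHPC groups. Il25 read 4.99, 5.41 and 5.26 in SHPCs and 5.27, 5.29 and 5.27 in SHPCs of transplanted livers, whose values fell inside the SHPC range. Il17b read 4.85, 5.02 and 4.69 against 4.85, 4.57 and 4.68. The differences were 0.06 ± 0.19 and −0.16 ± 0.16 (SE), with 95% intervals of −0.38 to 0.49 and −0.52 to 0.21 (limma adjusted p = 0.932 and 0.780). Without SHPC array 2 they were 0.15 and −0.073. Both lay above the array's median on all 9 arrays. Il17a and Il17f, which neighbour each other on chromosome 9, were below the median on all 9 arrays. Il17a read 3.48, 3.84 and 3.77 in SHPCs and 3.29, 3.26 and 3.65 in SHPCs of transplanted livers, a difference of −0.30 ± 0.15 (SE, limma adjusted p = 0.706). Il17f read 3.46, 4.10 and 3.82 against 3.67, 3.70 and 3.65, a difference of −0.12 ± 0.19 that became 0.029 without SHPC array 2.

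The adaptor Traf3ip2 read 4.67, 5.13 and 5.05 in SHPCs and 4.94, 5.07 and 5.05 in SHPCs of transplanted livers, a difference of 0.07 ± 0.16 (SE, limma adjusted p = 0.896) that became 0.16 without SHPC array 2. Its values in transplanted livers fell inside the SHPC range. Across the members 5 were higher and 5 lower, with a median of −0.04 against 0.02 over all genes tested, and without SHPC array 2, 6 were higher and 4 lower, with a median of 0.04. The 95% intervals of the 9 members other than Il17rb all lay between −0.64 and 0.49, so a difference as large as the one measured for Il17rb was outside each of them.

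**Figure D2:**
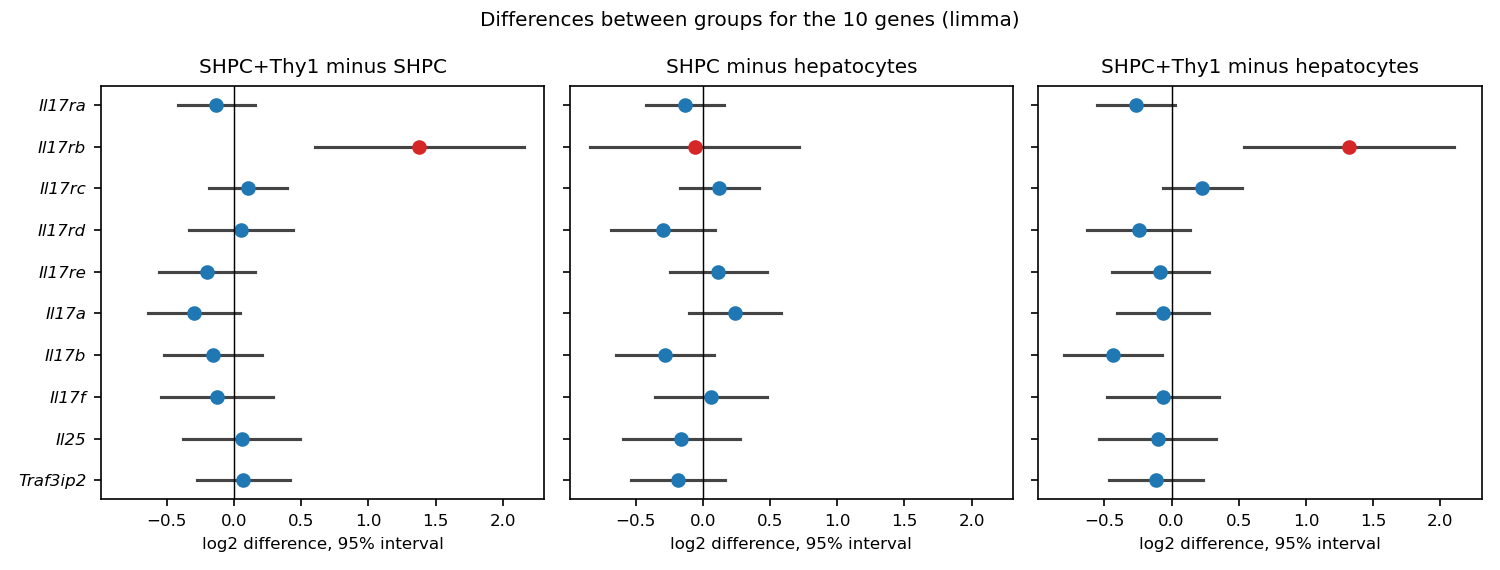
Log2 differences between groups (horizontal axis) of the 10 genes (vertical axis) with limma's 95% intervals as lines, 1 panel per comparison and Il17rb in red. Il17rb differed by 1.38 and 1.32 where transplanted livers were compared and by −0.06 between SHPCs and hepatocytes of livers without transplantation.

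The comparison of SHPC clusters with neighbouring hepatocytes, both from livers without transplantation, asks how the clusters differ from the tissue beside them. Il17rb differed by −0.06 ± 0.35 (SE, limma adjusted p = 1.000), with a 95% interval of −0.84 to 0.72. Without SHPC array 2 the difference was 0.31 ± 0.29 (interval −0.35 to 0.97), with 0.336% of all genes passing, and without hepatocyte arrays 1 and 2 in turn it was 0.13 and −0.26, so its direction was not settled. None of the members passed (0 of 10 in limma, with 0 at an unadjusted p under 0.05), where 0.0633% of all genes passed and 4.12% had such an unadjusted p. With the replicate number as a block 35 genes passed in place of 10, or 0.222%, and 0 members did. Il17rd was the 1 member whose groups lay apart, against 5.22% of all genes. It read 4.80, 4.33 and 4.45 in hepatocytes against the SHPC values between 4.22 and 4.24, a difference of −0.30 ± 0.17 (SE, limma adjusted p = 1.000). Il17b read 4.85, 5.30 and 5.26 in hepatocytes and differed by −0.28 ± 0.16, with overlap. Il17ra, at 6.29, 6.51 and 6.50 in hepatocytes, differed by −0.13 ± 0.13. The 10 members had a median of −0.10, against −0.01 over all genes tested, and of −0.018 without hepatocyte array 2.

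The third comparison set SHPCs of transplanted livers against hepatocytes of livers without transplantation, so that cell type and transplantation cannot be told apart, and it shares its arrays with the other comparisons. Il17rb differed by 1.32 ± 0.35 (SE), or 2.50-fold, with an interval of 0.54 to 2.10 (limma adjusted p = 0.145). Of the members 0 of 10 passed in limma, where 186 genes or 1.18% did, and 2 had an unadjusted p under 0.05, as 10.4% of all genes did. Il17rb was the 1 member whose groups lay apart, against 19.2% of all genes. Without SHPC array 2, which is in neither group but adds to the pooled spread, the difference stayed at 1.32 with an SE of 0.26 and passed (limma adjusted p = 0.0306), while 472 genes or 2.99% of all tested passed. Without both arrays that differed it was 1.12 and did not pass (limma adjusted p = 0.0675), while 3.64% of all genes did. Weighting arrays by quality let 4 members pass, Il17rb (1.29), Il17ra (−0.30), Il17rc (0.33) and Il17b (−0.52), and 17% of all genes with them. The other member at an unadjusted p under 0.05 was Il17b, at 4.85, 4.57 and 4.68 in transplanted livers against 4.85 to 5.30 in hepatocytes, a difference of −0.44 ± 0.16 (SE, limma adjusted p = 0.370) with an interval of −0.80 to −0.07. Its lowest hepatocyte value equalled its highest in transplanted livers. Il17ra differed by −0.26 ± 0.13 and Il17rc by 0.23 ± 0.13 (limma adjusted p = 0.535 and 0.607), and the arrays of both overlapped. Il25, at 5.19, 5.82 and 5.13 in hepatocytes, differed by −0.10 ± 0.19, a value that became 0.12 without hepatocyte array 2.

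In order of mean log2 intensity, Il17rb was lowest in SHPCs at 5.03 ± 0.72 (SD, n = 3), then hepatocytes at 5.09 ± 0.39, and highest in SHPCs of transplanted livers at 6.41 ± 0.39, with overlap between the first pair, whose order turned without SHPC array 2 (5.40 in SHPCs) and on the linear means. Il17ra ran the other way, from 6.17 ± 0.13 in SHPCs of transplanted livers over 6.30 ± 0.06 in SHPCs to 6.44 ± 0.12 in hepatocytes (SD, n = 3 each), and Il17b likewise from 4.70 ± 0.14 over 4.85 ± 0.16 to 5.14 ± 0.25. Neighbours in these 2 orders overlapped. Il17rc means ran from 5.44 ± 0.13 in hepatocytes over 5.56 ± 0.09 to 5.67 ± 0.12 in SHPCs of transplanted livers, again with overlap at each step. Il17rb also varied most among the members, over 2.57 log2 units between its lowest and highest array, where the other 9 genes spanned between 0.47 and 0.83 units.

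The genes downstream of these receptors were read from lists of named genes. Of 34 tested proximal signalling genes, which include the TRAF, kinase and NF-kB genes, 0 passed in any of the 3 comparisons in limma. In the order above, 1, 1 and 2 had an unadjusted p under 0.05, against 7.35%, 4.12% and 10.4% of all genes. Between the SHPC groups 26 were higher and 8 lower in transplanted livers, with a median of 0.12, where 53% of all genes tested were higher with a median of 0.02. Without SHPC array 2, 17 were higher and 17 lower, with a median of 0.0031, so the tilt rested on that array. Stat5b, a transcription factor of cytokine and growth hormone signals, read 6.76, 6.16 and 6.68 in SHPCs and 6.90, 7.22 and 7.36 in SHPCs of transplanted livers, a difference of 0.63 ± 0.21 (SE, limma adjusted p = 0.497). Against hepatocytes, Jun, a subunit of the AP-1 factor, differed by 0.38 ± 0.13 in SHPCs of transplanted livers, and Traf3, an inhibitor of this receptor's signal, by −0.30 ± 0.13 (SE, limma adjusted p = 0.314 and 0.487). Ikbkg, the regulatory subunit of the IkB kinase, was at 5.67 to 5.96 in SHPCs and 6.03 to 6.44 in hepatocytes, a difference of −0.37 ± 0.15 (SE, limma adjusted p = 1.000).

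The 5 tested feedback genes restrain or shape the output of NF-kB, and several are induced by it. All 5 were higher in transplanted than in other SHPCs, with a median of 0.17. In limma 0 passed, and 2 had an unadjusted p under 0.05, against 7.35% of all genes tested. Without SHPC array 2, 4 of 5 were higher, and Usp25, a deubiquitinating enzyme, was the exception (0.17 with all arrays, −0.037 without it). Nfkbiz, a cofactor for cytokine target genes, read 5.81, 5.65 and 6.27 in SHPCs against 6.40, 6.35 and 6.45, a difference of 0.49 ± 0.17 (SE, limma adjusted p = 0.568). Nfkbia, which encodes the NF-kB inhibitor IkB alpha, read 7.09, 5.95 and 7.03 against 7.03, 7.99 and 7.67 and overlapped, with SHPC array 2 the low value. Its difference was 0.87 ± 0.32 (SE, limma adjusted p = 0.602), and 0.50 without that array. Zc3h12a and Tnip1 differed by 0.15 ± 0.15 and 0.05 ± 0.13.

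Target genes of the Il17a cytokine showed no common direction. Of 23 tested, 10 were higher and 13 lower between the SHPC groups, with a median of −0.02. Without SHPC array 2, 15 were higher and 8 lower, with a median of 0.10. In limma 0 passed in any comparison. At an unadjusted p under 0.05 were 2, 2 and 4, where 7.35%, 4.12% and 10.4% of all genes were. Il1b, an inflammatory cytokine of macrophages, read 4.80, 4.13 and 4.80 in SHPCs and 4.96, 5.82 and 5.12 in SHPCs of transplanted livers, a difference of 0.72 ± 0.27 (SE, limma adjusted p = 0.619). The neutrophil chemokine Cxcl2 and the neutrophil protein gene S100a9 differed by −0.55 ± 0.21 and −0.57 ± 0.23 in SHPCs of transplanted livers against hepatocytes (limma adjusted p = 0.379 and 0.436), with hepatocyte array 2 the highest value of each, and by −0.34 and −0.30 without it. Mmp3, a matrix protease, differed by −0.57 ± 0.24 in SHPCs against hepatocytes (limma adjusted p = 1.000), and by −0.30 without hepatocyte array 2. Of 10 tested type 2 response genes, the kind known to follow the Il25 cytokine, 3 were higher and 7 lower between the SHPC groups. Without SHPC array 2, 7 were higher and 3 lower. In limma 0 passed, and 1 had an unadjusted p under 0.05, against 7.35% of all genes tested. That gene was Il13ra1, a receptor chain for interleukin 13, at 9.34, 8.22 and 9.24 against 9.50, 9.51 and 9.70, a difference of 0.64 ± 0.28 (SE, limma adjusted p = 0.669) in which SHPC array 2 was low, and 0.28 without it. Stat6, the transcription factor of that receptor, differed by 0.60 ± 0.32, and by 0.26 without that array. Ccl24 differed by 0.32 ± 0.23, and Ccl22 by −0.03 ± 0.19 (0.027 without that array). Of the family's other ligands Il17c was named on the array, at 4.99, 5.38 and 5.01 in SHPCs and 4.98, 4.86 and 4.99 in SHPCs of transplanted livers, a difference of −0.18 ± 0.16 (SE, limma adjusted p = 0.741) that was −0.059 without SHPC array 2.

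The genes whose pattern over the 9 arrays was most like that of Il17rb were found by Pearson's r with its log2 values, as a description. The nearest of 15792 other tested genes were Fdft1, which encodes squalene synthase of the cholesterol pathway (0.98), Scd, a fatty acid desaturase (0.98), Acly, which makes cytosolic acetyl-CoA (0.98), Elovl6, a fatty acid elongase (0.97), and Xpnpep2, a membrane aminopeptidase (0.97). Scd read 10.19, 7.38 and 8.99 on SHPC arrays 1, 2 and 3, then 11.59, 11.15 and 11.15 in transplanted livers and 9.66, 8.13 and 9.55 in hepatocytes. It therefore put the 9 arrays in the same order as Il17rb did (Spearman's rho 1.000). On the 7 arrays without SHPC array 2 and hepatocyte array 2 the r of the 5 genes lay between 0.96 and 0.97. There the 5 nearest genes were different ones, Sec22b, Uox, Tmem41b, Fgd4 and Loricrin, at 0.97 to 0.99. Over all 9 arrays Loricrin had an r of −0.51, with its highest values on SHPC array 2 and hepatocyte array 2. The others had an r of 0.86 to 0.95 there. An r above 0.9 was reached by 255 genes over 9 arrays, by 186 over 7 and by 104 over both, so many genes have a similar pattern, and the points share the group contrast and the 2 arrays that differed. None of the other members reached it: their r over 9 arrays ran from −0.67 for Il17ra to 0.53 for Il17rc. The 5 nearest genes differed by 1.33 to 3.15 between the SHPC groups, and 0 of them passed in limma (adjusted p between 0.275 and 0.393).

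**Figure D3:**
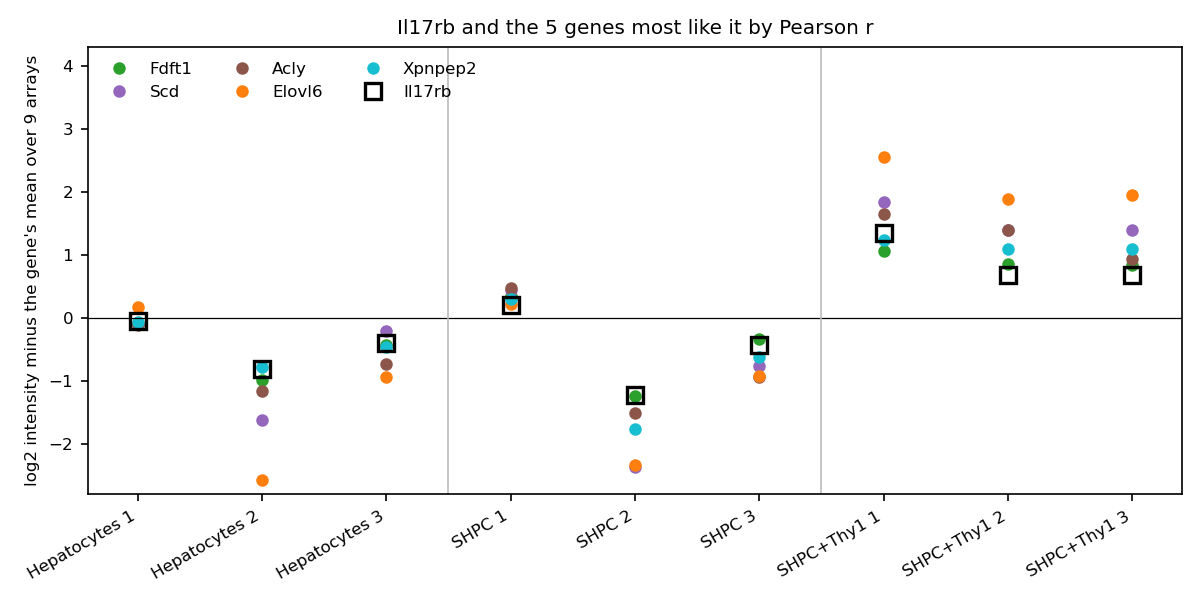
Log2 intensity minus the gene's own mean over the 9 arrays (vertical axis) on each array (horizontal axis), for Il17rb (open squares) and the 5 genes with the highest Pearson r with it (coloured points). Il17rb and these genes are highest on the 3 arrays of transplanted livers and lowest on SHPC array 2 or hepatocyte array 2.

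Processing moved the Il17rb difference between the SHPC groups from 1.01 to 1.72 without changing its direction. The highest value was without SHPC array 1 and the lowest without SHPC array 2. The difference between SHPCs and hepatocytes ran from −0.40 to 0.31.

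**Figure D4:**
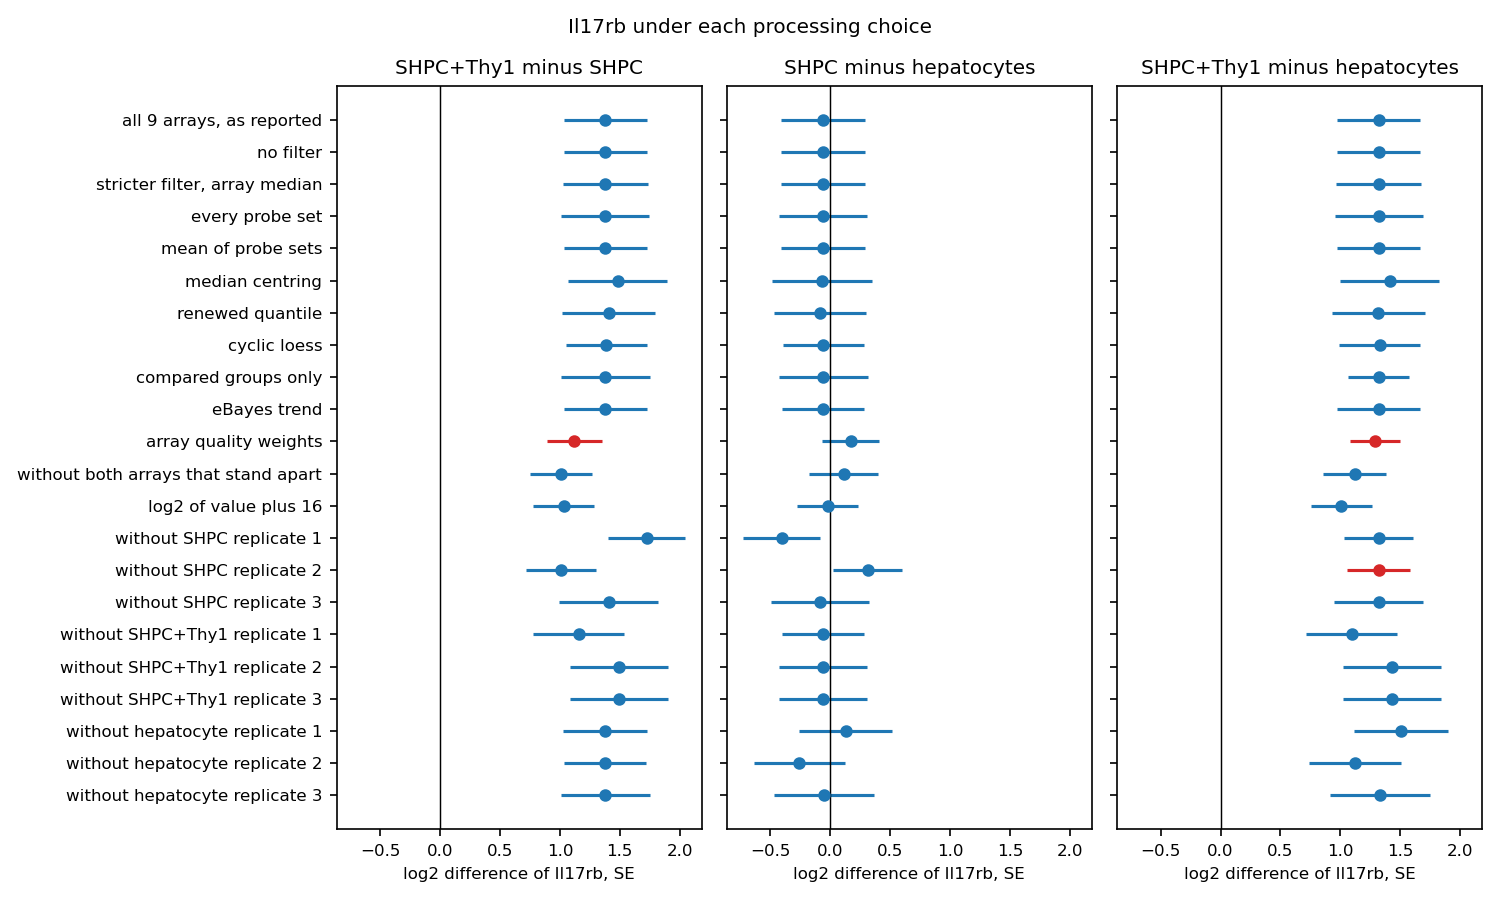
Log2 difference of Il17rb (horizontal axis, lines show limma's SE) in each of the 3 comparisons under the reported processing and its alternatives (vertical axis), red where limma's adjusted p was under 0.05. The settings with a replicate block are not drawn. Between the SHPC groups the values lie from 1.01 to 1.72, and between SHPCs and hepatocytes they lie on both sides of 0.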

How the data were processed

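Arrays of laser-captured cells from frozen sections 7 µm thick gave 1 table of intensity values on a linear scale, made by the authors with RMA (background correction, normalization between arrays, probe set summary), per the submitters' processing notes. No label or header gives its settings or a genome build. The log2 of each deposited value was taken here. Groups follow the cell type label. For the hepatocyte arrays the title, Control, goes with it, but the description label names SHPCs with Thy1+ cells. The identity of these arrays therefore rests on the cell type label and the title.

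Genes were named from the platform annotation where a probe set had 1 symbol, and the probe set of highest mean stood for a gene. Testing was limited to genes above the array's own 25th percentile on 3 or more of 9 arrays, as all 10 members did on all 9 arrays, which kept 15793 of 18166 genes. A single limma 3.58.1 fit (R 4.3.3) of 3 group means over 9 arrays, with eBayes and 6 residual degrees of freedom, gave differences, SE and 95% intervals, with Benjamini-Hochberg adjustment over all genes tested at 0.05. The script was tested on simulated data. The number of arrays limits the precision. The promoter window is from RefSeq's table for GRCr8.

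The members and lists were chosen with earlier results of these data known. Named genes were the members, up to 4 genes of each list by smallest p where none passed, and the 5 nearest to Il17rb by r. Naming Cd3e, Cd4, Il7r, Usp25, the markers that turned without SHPC array 2 and the nearest genes over 7 arrays came after their values were seen. Between same-numbered hepatocyte and SHPC arrays the deviations from group means correlated at 0.34 to 0.70. Each hepatocyte array correlated best with the SHPC array of its number, but SHPC array 3 correlated better with hepatocyte array 1 (0.48) than with hepatocyte array 3 (0.34). The labels do not say what a number marks, so this pairing comes from the data. For SHPC arrays of transplanted livers the correlations were −0.09 to 0.00, so the deviations show no pairing by number there. This cannot exclude a pairing, because SHPC array 2 and hepatocyte array 2 weigh heavily in the deviations of their groups. Alternatives were another filter, probe set rule, scaling, variance model, weights, block and leaving out arrays. Values of 6 members were exactly equal on 2 or 3 arrays, and no label or header gives a cause.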

Additional observations from a re-analysis of the deposited data

How the results depend on the processing

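Of 1177 values recomputed under 24 alternatives, 1071 were counted as unchanged. They kept their direction and their side of the threshold or moved by less than the spread. Numbers of genes called have no direction, and among them a change such as 186 to 144 was also counted as unchanged. Genes called between the SHPC groups numbered 1, and became 0 with every probe set, median centring, the compared groups only or log2 of the value plus 16, 17 with renewed quantile scaling, 40 with cyclic loess, 259 with array quality weights and 23 without both arrays that differed. For SHPCs against hepatocytes the 10 calls became 0 with every probe set, median centring or the compared groups only, 6 with log2 of the value plus 16, 17 with quantile scaling, 34 with loess, 375 with weights and 48 without both arrays. For SHPCs of transplanted livers against hepatocytes the 186 calls became 56, 47, 328, 439, 304, 2685 and 575 with every probe set, centring, quantile scaling, loess, the compared groups only, weights and without both arrays. A fixed replicate block in these 3 comparisons gave 64, 35 and 367 calls, a random block 10, 29 and 305, and the fixed block over SHPC and hepatocyte arrays alone, added after seeing the data, gave 76 for that pair. In the fixed block Il17rb passed between the SHPC groups (1.38, limma adjusted p = 0.0221). It also passed in SHPCs of transplanted livers against hepatocytes (1.32, limma adjusted p = 0.00521), as the 1 member passing in each. For those groups the deviations showed no pairing by number, which cannot exclude one. With weights 1 member passed between the SHPC groups, Il17rb at 1.12, and 4 against hepatocytes, with Il17rb at 1.29. Il17rb in SHPCs against hepatocytes reversed to 0.17 with weights and 0.11 without both arrays. Leaving out 1 array at a time gave 0 to 24, 0 to 53 and 31 to 472 calls, 0 to 0, 0 to 0 and 0 to 1 members, and Il17rb values of 1.01 to 1.72, −0.40 to 0.31 and 1.09 to 1.51.

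Other members reversed from small values. Between the SHPC groups Il17f became 0.029 without both arrays, and leaving out 1 array gave −0.058 to 0.15 for Il25, −0.070 to 0.16 for Traf3ip2, −0.29 to 0.029 for Il17f and −0.042 to 0.21 for Il17rd. For SHPCs against hepatocytes weights gave −0.0105 for Il17re and −0.21 for Il17c, which was −0.075 without both arrays, and leaving out 1 array gave −0.052 to 0.21 for Il17re, −0.0915 to 0.23 for Il17f, −0.083 to 0.14 for Il17c and −0.28 to 0.060 for Il25. In the third comparison Il17re, Il17a and Il17f became 0.0099, 0.033 and 0.031 with centring, 0.0185, 0.048 and 0.042 with quantile scaling and 0.016, 0.043 and 0.043 with loess. There weights gave 0.11 for Il17f, 0.11 for Il25 and 0.013 for Traf3ip2, leaving out both arrays gave 0.080 and 0.12 for Il17f and Il25, and leaving out 1 array gave −0.19 to 0.012 for Il17a, −0.17 to 0.080 for Il17f and −0.23 to 0.12 for Il25. The cause of these changes was not tested. Median centring moved the median of all genes between the SHPC groups from 0.02 to 0.12. Low signal limits Il17a, Il17f, Il17re and Il17rd, and 3 arrays per group limit every comparison.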
